A study of Homo sapiens with 4 samples.

Results

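Genes of the extracellular matrix and of its receptors were followed on 4 arrays of endometrial cancer cells, 1 each for Ishikawa cells given siEfp, Ishikawa cells given siControl, HEC-1A cells given siEfp and HEC-1A cells given siControl. siEfp is a small interfering RNA against Efp, an estrogen-responsive ubiquitin ligase whose gene has the official symbol TRIM25, and siControl is a non-targeting duplex. Both are established lines of human endometrial adenocarcinoma. Ishikawa cells came from a well-differentiated tumor and carry ERα, with RNA taken 48 h after treatment by the study's methods, and HEC-1A cells came from a moderately differentiated tumor and lack ERα. The methods name siEfp #A for Ishikawa cells, while for HEC-1A cells the sources used here give neither the duplex nor the time, so no array is known to carry another Efp duplex. The genes were chosen by symbol: integrin subunits (ITGA and ITGB), laminin chains (LAMA, LAMB and LAMC), collagen chains (COL) and FN1, FBN1, FBN2, TNC, THBS1, THBS2, THBS3 and SPARC. Of 18417 genes with a probe set of their own, 91 matched. They were 17 integrin α subunits, 8 integrin β subunits, 10 laminin chains, 43 collagen chains, the 8 glycoproteins and 5 genes that match by symbol but are neither subunits nor chains, namely ITGB1BP1, ITGB1BP2, ITGB3BP, ITGBL1 and the antisense gene COL18A1-AS1. The probe set of ITGA1 and 1 further probe set of COL1A2 are each shared with another gene, and these 2 were left out.

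Integrins are αβ heterodimers that join the cytoskeleton to the matrix outside the cell, and the α chain largely sets which ligand is bound. Laminins are trimers of an α, a β and a γ chain that assemble with type IV collagen into the basement membrane on which the endometrial epithelium rests. Fibrillar collagens, fibronectin, fibrillins, tenascin-C and thrombospondins belong mostly to the interstitial matrix, and several of them are deposited when tissue is remodelled.

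The labels were checked first. TRIM25 had a log2 signal of 7.96 with siEfp and 9.42 with siControl in Ishikawa cells, and of 7.93 with siEfp and 9.50 with siControl in HEC-1A cells, which is 2.75-fold and 2.97-fold lower. ESR1, the ERα gene, had signals of 6.65 and 6.91 on the Ishikawa arrays and of 4.77 and 4.45 on the HEC-1A arrays. All 9 epithelial markers reached the median signal of the genes on at least 1 array, but only 4 of the 9 were at or above it in HEC-1A cells. CDH1, the E-cadherin gene, had 3.74 under siEfp and 4.07 under siControl there, and KRT7, CLDN3, CLDN4 and MUC1 were below the median too. None of 7 fibroblast and 5 endothelial markers reached it on any array, and CD68 was the 1 of 5 measured leukocyte markers that did. With 1 array per group no difference below has a replicate or a test, and precision is limited by that number of arrays. A lower signal from fewer expressing cells cannot be told apart from less RNA per cell.

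Efp silencing was accompanied in Ishikawa cells by lower signals of thrombospondin 1, fibrillin 2, tenascin-C, most laminin chains above the median signal and several integrin subunits, whereas most collagens were dim and slightly higher. In HEC-1A cells THBS1 and COL12A1 were lower as well, most laminins and integrins with at least a median signal differed less, and ITGB8 was lower there alone. A difference here is siEfp minus siControl on the log2 scale, and the middle 95% of all genes lay between -0.70 and 0.51 in Ishikawa cells and between -0.55 and 0.49 in HEC-1A cells. At least 1.5-fold lower in Ishikawa cells were 13 of the 91 genes, beside 3.72% of all genes, and 0 were 1.5-fold higher, beside 1.49%. In HEC-1A cells 3 of the 91 were at least 1.5-fold lower, beside 2.04%, and 0 were higher by that much, beside 1.34%. At a 2-fold difference FBN2, THBS1 and ITGA3 were lower in Ishikawa cells, 3 of 91 beside 0.804% of all genes, and THBS1 was lower in HEC-1A cells, 1 of 91 beside 0.271%. None of the 91 was 2-fold higher in either line, where 0.136% of all genes in Ishikawa and 0.103% in HEC-1A cells were.

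**Figure D1:**
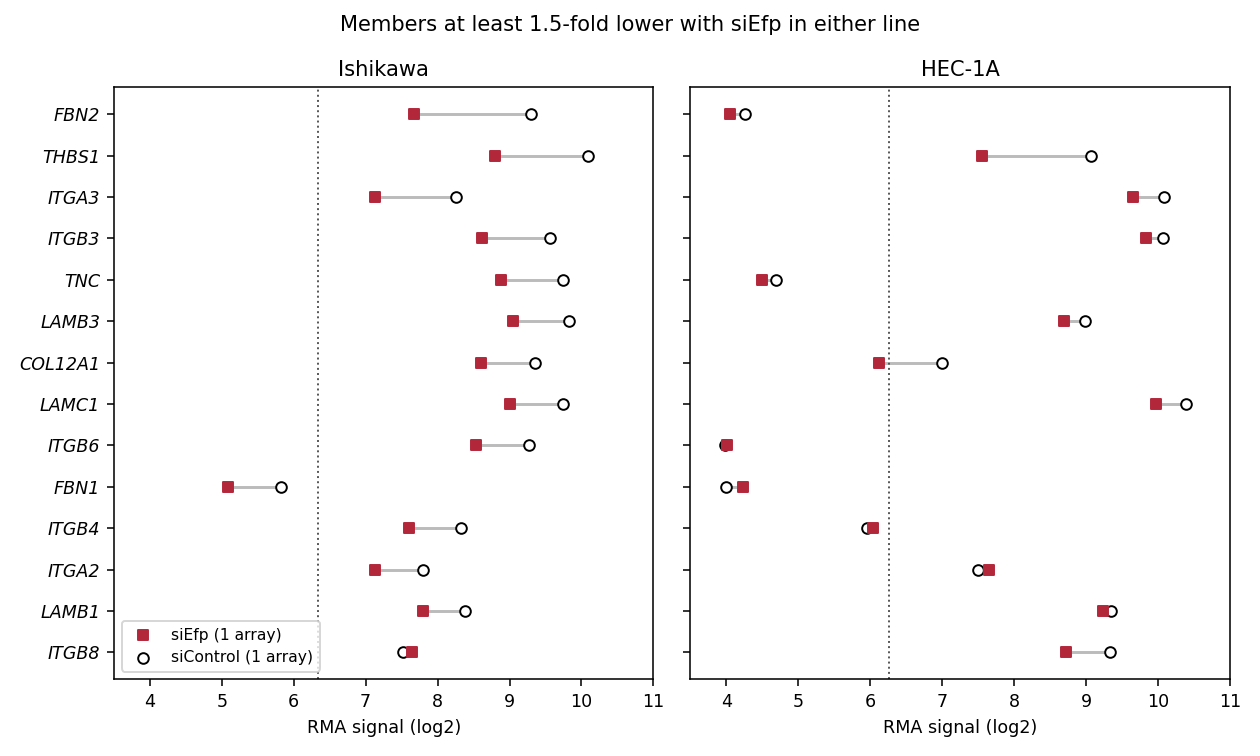
RMA signal (x axis, log2) of the 14 members at least 1.5-fold lower with siEfp in either line; red squares are the siEfp arrays, open circles the siControl arrays (1 array each), and the dotted line is the median signal of all genes on the line's siControl array. In Ishikawa cells 13 of the 14 squares lie left of their circles, ITGB8 being the exception, and in HEC-1A cells FBN2, TNC, ITGB6 and FBN1 lie far below the dotted line.

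THBS1 was lower in both lines. It encodes thrombospondin 1, a secreted trimer that binds CD47 and integrins and can activate latent TGF-β. Its probe set 7982597 had a signal of 8.79 with siEfp and 10.08 with siControl in Ishikawa cells, a difference of -1.29 or 2.45-fold lower. In HEC-1A cells THBS1 had 7.55 with siEfp and 9.06 with siControl, a difference of -1.51 or 2.85-fold lower. It ranked 57 from the lowest of 18417 genes in Ishikawa cells and 10 in HEC-1A cells. THBS1 was the 1 member at least 2-fold lower in both, beside 0.174% of all genes.

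COL12A1 encodes the chain of type XII collagen, which associates with collagen fibrils. Its probe set 8127563 had a signal of 8.60 with siEfp and 9.35 with siControl in Ishikawa cells, and of 6.12 with siEfp and 7.0 with siControl in HEC-1A cells. The differences were -0.76 and -0.88, so COL12A1 too was lower by a like amount in each line. COL12A1 and THBS1 were the 2 members at least 1.5-fold lower in both lines, beside 0.961% of all genes.

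The 250 bases before the start site are shown for THBS1 and COL12A1, which were lower in both lines, and for FBN2, the member furthest down in Ishikawa cells. The sequences are those of RefSeq for GRCh38.p14, printed 5′ to 3′ along the gene. Capitals mark motifs found on either strand, which are GGAATG, the core bound by TEAD factors, and GGGCGG, the GC box of SP1, which reads CCGCCC on the other strand.
THBS1, chr15:39580829-39581078, plus strand: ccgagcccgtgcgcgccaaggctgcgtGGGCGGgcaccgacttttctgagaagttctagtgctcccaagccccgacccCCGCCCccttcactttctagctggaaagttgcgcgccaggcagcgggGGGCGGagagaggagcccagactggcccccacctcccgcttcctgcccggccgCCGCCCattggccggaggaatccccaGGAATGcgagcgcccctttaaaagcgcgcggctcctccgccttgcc
COL12A1, chr6:75206054-75206303, minus strand: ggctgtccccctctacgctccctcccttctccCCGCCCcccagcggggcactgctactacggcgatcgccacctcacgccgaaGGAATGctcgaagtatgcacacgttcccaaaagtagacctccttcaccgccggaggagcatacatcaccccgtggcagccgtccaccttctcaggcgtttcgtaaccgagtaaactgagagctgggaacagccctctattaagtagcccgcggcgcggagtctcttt
FBN2, chr5:128538246-128538495, minus strand: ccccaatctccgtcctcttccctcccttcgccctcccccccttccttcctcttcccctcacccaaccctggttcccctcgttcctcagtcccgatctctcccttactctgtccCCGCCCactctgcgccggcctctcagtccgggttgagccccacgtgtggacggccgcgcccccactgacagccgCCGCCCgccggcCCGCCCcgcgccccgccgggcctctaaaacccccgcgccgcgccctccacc
GGAATG stood at positions -46 to -41 from the THBS1 start and at -167 to -162 from that of COL12A1, on the strand of the gene in both. It occurred in 12.2% of the 90 windows of the 68 members that have a promoter entry and in 11.9% of the 35116 windows of all genes, and in the sequences shown it overlapped no GC box. The GC box occurred at 4 places before THBS1, at 3 before FBN2 and at 1 before COL12A1. It was held by 55.6% of the members' windows and by 42.6% of all windows. The AP-1 site, TGACTCA or TGAGTCA, was searched too and was found in 1.11% of the members' windows, which was 1 of LAMB3, and in 4.20% of all windows. The NF-κB consensus was found in 13.3% of the members' windows, those of 10 members, and in 8.04% of all windows. Of these members LAMB3, ITGB1, ITGA5, ITGB1BP1, ITGA10 and ITGA11 had differences below 0 in Ishikawa cells, beside 47.6% of all genes. These were -0.77, -0.28, -0.34, -0.20, -0.06 and -0.11 in turn. COL15A1, COL7A1, COL25A1 and COL6A2 had differences above 0 in Ishikawa cells. In HEC-1A cells LAMB3, ITGB1, ITGA5, ITGA10 and COL7A1 were lower, beside 47.7% of all genes. ITGA11 differed by 0.00 there, and ITGB1BP1, COL15A1, COL25A1 and COL6A2 were higher. No NF-κB match was found in the windows of THBS1, COL12A1 and FBN2. All these motifs are matches of letters, and binding was not measured.

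FBN2 and TNC were lower in Ishikawa cells, where their signals were above the median of the genes, and stood below it in HEC-1A cells. FBN2, which encodes the microfibril protein fibrillin 2 (probe set 8113800), had 7.67 with siEfp and 9.29 with siControl in Ishikawa cells, 3.09-fold lower. In HEC-1A cells FBN2 had 4.05 with siEfp and 4.26 with siControl. TNC encodes tenascin-C, a glycoprotein of remodelled tissue and tumor stroma. In Ishikawa cells TNC had 8.88 with siEfp and 9.74 with siControl, 1.81-fold lower, and in HEC-1A cells 4.50 with siEfp and 4.68 with siControl.

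The other glycoproteins differed less or had dim signals. FBN1, fibrillin 1, had 5.09 with siEfp and 5.82 with siControl in Ishikawa cells, 1.66-fold lower at a signal below the median, and 4.23 with siEfp and 4.0 with siControl in HEC-1A cells. FN1, fibronectin, the ligand of α5β1, was dim and differed by -0.23 in Ishikawa cells and by -0.42 in HEC-1A cells. THBS2, THBS3 and the collagen-binding SPARC had signals between 4.42 and 4.94 on all 4 arrays, with differences from 0.07 to 0.23 in Ishikawa and from -0.18 to -0.10 in HEC-1A cells. Over the 8 glycoproteins the median difference was -0.48 in Ishikawa cells, with 5 lower, beside 47.6% of all genes. In HEC-1A cells their median was -0.18, with 7 lower, beside 47.7% of all genes. Only THBS1 among the 8 was at or above the median signal in HEC-1A cells. The median of all genes was 0.01 in each line.

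Of the laminin chains, 5 had signals at or above the median in both lines, LAMA5, LAMB1, LAMB2, LAMB3 and LAMC1. All 5 had differences below 0 in both, beside 32.9% of all genes with such signals, though LAMB2 by only -0.01 in each. LAMB3, the β chain of the laminin that anchors epithelia through hemidesmosomes, had 9.05 with siEfp and 9.82 with siControl in Ishikawa cells and 8.70 with siEfp and 8.99 with siControl in HEC-1A cells. The γ chain gene LAMC1, whose product is shared by most laminins, had 9.01 with siEfp and 9.74 with siControl in Ishikawa cells and 9.97 with siEfp and 10.39 with siControl in HEC-1A cells. These are differences of -0.77 and -0.29 for LAMB3 and of -0.74 and -0.42 for LAMC1, larger in Ishikawa cells for each.

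LAMB1 and LAMA5 are the β and α chains that join LAMC1 in a widespread epithelial basement membrane laminin. LAMB1 had 7.80 with siEfp and 8.38 with siControl in Ishikawa cells, and 9.23 with siEfp and 9.35 with siControl in HEC-1A cells. LAMA5 had 7.92 with siEfp and 8.46 with siControl in Ishikawa cells, and 7.63 with siEfp and 7.99 with siControl in HEC-1A cells. LAMB1 thus differed by -0.59 and LAMA5 by -0.55 in Ishikawa cells, while in HEC-1A cells LAMB1 differed by -0.11 and LAMA5 by -0.37. LAMB2 differed by -0.01 in each line. The remaining chains, LAMA1, LAMA2, LAMA4, LAMB4 and LAMC3, were dim, with differences from 0.07 to 0.39 in Ishikawa and from -0.24 to 0.48 in HEC-1A cells, where LAMA4 was the highest.

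**Figure D2:**
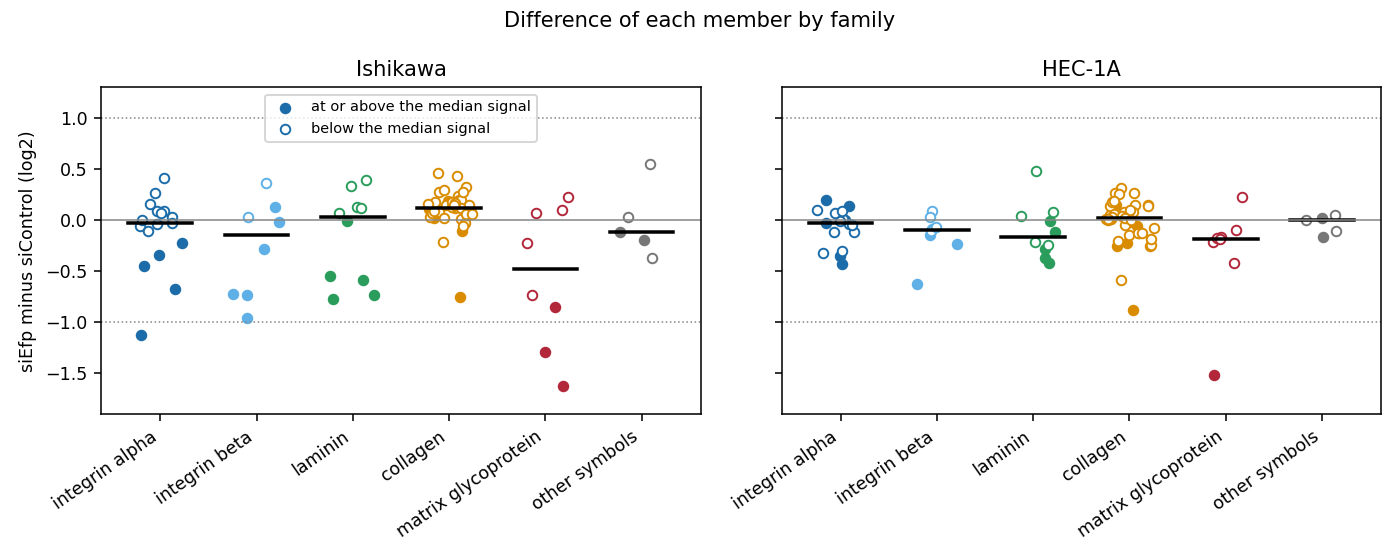
Difference siEfp minus siControl (y axis, log2) of each of the 91 members by family (x axis) in Ishikawa and HEC-1A cells, 1 array per condition. Filled points are genes at or above the median of the line's mean signals, open points those below it, black bars the family medians and dotted lines a 2-fold difference; in Ishikawa cells the 5 filled laminin points lie at or below 0 and the 5 open ones above it, and the medians over the whole families are 0.03 for laminins and 0.12 for collagens.

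Of the laminin-binding α subunits, ITGA3 and ITGA6 were lower in both lines. ITGA3, the α subunit of α3β1 (probe set 8008237), had 7.13 with siEfp and 8.25 with siControl in Ishikawa cells, a difference of -1.13 or 2.18-fold lower. In HEC-1A cells, where ITGA3 was higher under either siRNA, it had 9.66 with siEfp and 10.09 with siControl, a difference of -0.43. ITGA6, which pairs with β1 or with β4, had 8.07 with siEfp and 8.52 with siControl in Ishikawa cells and 9.55 with siEfp and 9.90 with siControl in HEC-1A cells, a like difference in each. ITGB4, the β subunit of hemidesmosomes, had 7.61 with siEfp and 8.32 with siControl in Ishikawa cells, 1.65-fold lower. In HEC-1A cells ITGB4 was below the median of the genes, with 6.04 under siEfp and 5.95 under siControl, and ITGA7, the other laminin-binding α subunit, was so in both lines, with differences of 0.03 in Ishikawa cells and -0.32 in HEC-1A cells.

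The β subunits that pair with αv did not move together. ITGB3, the partner of αv in a receptor for vitronectin and other RGD ligands that also marks the receptive endometrium, had 8.61 with siEfp and 9.57 with siControl in Ishikawa cells, 1.94-fold lower, and 9.84 with siEfp and 10.07 with siControl in HEC-1A cells. ITGB6, an epithelial subunit that activates latent TGF-β with αv, had 8.53 with siEfp and 9.26 with siControl in Ishikawa cells, 1.66-fold lower. In HEC-1A cells ITGB6 was dim, with 4.01 under siEfp and 3.98 under siControl. ITGB8, which also takes part in TGF-β activation, had 7.64 with siEfp and 7.52 with siControl in Ishikawa cells, but 8.72 with siEfp and 9.34 with siControl in HEC-1A cells, 1.54-fold lower. ITGB5 differed by -0.02 and -0.15, and ITGAV itself by -0.23 in Ishikawa cells and 0.19 in HEC-1A cells.

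Of the collagen and fibronectin receptors, ITGA2, the α subunit of the collagen receptor α2β1, had 7.13 with siEfp and 7.80 with siControl in Ishikawa cells, 1.59-fold lower, and 7.65 with siEfp and 7.51 with siControl in HEC-1A cells. ITGA5, of the fibronectin receptor, differed by -0.34 in Ishikawa and -0.03 in HEC-1A cells. ITGB1, the subunit common to most of these dimers, differed by -0.28 and -0.09. The other 12 α subunits, among them those of leukocytes, and ITGB2 and ITGB7 were below the median in both lines, the α subunits with differences from -0.11 to 0.41 in Ishikawa and from -0.32 to 0.10 in HEC-1A cells. The difference in Ishikawa cells minus that in HEC-1A cells was -0.81 for ITGA2, -0.80 for ITGB4 and -0.76 for ITGB6, and in the other direction 0.75 for ITGB8, none of which was tested.

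Most collagen genes were higher by small amounts in Ishikawa cells. Of 43 chains 38 were higher there, beside 9616 of 18417 genes, with a median difference of 0.12 and a range from -0.76 for COL12A1 to 0.46 for COL28A1. In HEC-1A cells 27 were higher, beside 9594 of 18417 genes, with a median of 0.02. The 9 collagens at or above the median signal in Ishikawa cells had a median difference of 0.03 there, and the 34 dim ones one of 0.14. Of these dim collagens 31 were higher, beside 5423 of 9208 dim genes, whose median was 0.05. Among other dim members the medians were 0.13 for 5 laminins, 0.05 for 12 integrin α subunits, 0.20 for 2 integrin β subunits and 0.07 for 5 glycoproteins. Higher in both lines were 25 of 43 collagens, beside 5735 of 18417 genes, and lower in both were COL12A1, COL1A1 and COL8A1. Of the 43, 34 were below the median signal in Ishikawa and 33 in HEC-1A cells.

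COL1A1, the α1 chain of fibrillar type I collagen, had 7.29 with siEfp and 7.40 with siControl in Ishikawa cells and 6.37 with siEfp and 6.50 with siControl in HEC-1A cells. The type IV chains of the basement membrane differed by at most 0.24 in either direction. COL4A1 had 6.22 with siEfp and 6.05 with siControl in Ishikawa cells and 6.51 with siEfp and 6.36 with siControl in HEC-1A cells, and COL4A2, its head-to-head neighbour in the genome, differed by 0.03 and -0.02. COL4A3 and COL4A4 differed by 0.08 and 0.20 in Ishikawa cells and by -0.24 and 0.01 in HEC-1A cells, and COL4A5 and COL4A6 by 0.12 and 0.18 and by 0.02 and -0.13. COL18A1, the basement membrane collagen from which endostatin is cut, differed by 0.02 and -0.22. All 5 chains of type VI collagen, which forms beaded filaments, had differences from 0.06 to 0.17 in Ishikawa and from 0.00 to 0.27 in HEC-1A cells.

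Among the members with at least a median signal on 1 array of the line, the highest differences were 0.18 for COL23A1 and 0.14 for COL6A1 in Ishikawa cells and 0.19 for ITGAV and 0.15 for COL4A1 and COL6A2 in HEC-1A cells, all inside the middle 95% of all genes. In HEC-1A cells COL13A1, a transmembrane collagen, was the lowest of the dim chains at -0.58, just short of a 1.5-fold difference. Of the 5 genes that match by symbol but are neither subunits nor chains, the largest difference was that of ITGBL1, at 0.55 in Ishikawa cells with a dim signal. ITGB1BP1, ITGB3BP and COL18A1-AS1 differed by -0.20, -0.12 and 0.03 in Ishikawa and by 0.02, -0.17 and 0.05 in HEC-1A cells.

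The direction of the 91 genes went with their signal, and in both lines it also differed between families. Over all of them 32 were lower in Ishikawa cells, beside 47.6% of all genes, and 48 in HEC-1A cells, beside 47.7%. Among the 30 at or above the median of the mean signals in Ishikawa cells 22 were lower, beside 54.4% of all such genes, and 12 were at least 1.5-fold lower, beside 5.59%. Their median difference was -0.31, and that of all such genes -0.03. Of the 9 collagens among these 30 genes 2 were lower and 7 higher. Lower were all 5 integrin α subunits, 5 of 6 integrin β subunits, all 5 laminins, all 3 glycoproteins and the 2 remaining genes. Among the 61 dim members, of which 34 were collagens, 10 were lower, beside 40.8% of dim genes. In HEC-1A cells 20 of the 27 members at or above the median were lower, beside 47.0% of such genes, and 3 were at least 1.5-fold lower, beside 2.91%, with median differences of -0.13 for these members and 0.01 for such genes. Of the 64 dim members 28 were lower there, beside 48.4%. Among the 27 genes 6 of 10 collagens were lower in HEC-1A cells. So were 3 of 5 integrin α subunits, all 4 integrin β subunits, all 5 laminins and the 1 glycoprotein. Among the 64 dim members 10 of 33 collagens were lower there, and 7 of 12 integrin α subunits, 2 of 4 integrin β subunits, 2 of 5 laminins and 6 of 7 glycoproteins.

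Lower in both lines, whatever the size, were 21 of the 91, beside 26.7% of all genes. Among the 25 with at least a median signal in both lines 15 were lower in both, beside 32.9% of such genes. They included the 5 laminin chains, ITGA3, ITGA5, ITGA6, ITGB1, ITGB3, ITGB5, THBS1, COL12A1, COL1A1 and ITGB3BP. Of the 9 epithelial markers 8 were lower with siEfp in Ishikawa cells, beside 47.6% of all genes, and 7 in HEC-1A cells, beside 47.7%. Their median difference was -0.21 in each line. CLDN3 was higher by 0.63 in Ishikawa and by 0.12 in HEC-1A cells, and MUC1 by 0.15 in HEC-1A cells. EPCAM, counted as lower, differed by -0.003 in Ishikawa cells. The summed log2 signals of the 9 markers were 85.80 with siEfp and 87.93 with siControl in Ishikawa cells. In HEC-1A cells they were 64.52 with siEfp and 66.79 with siControl. The part of these markers in the results was not tested.

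**Figure D3:**
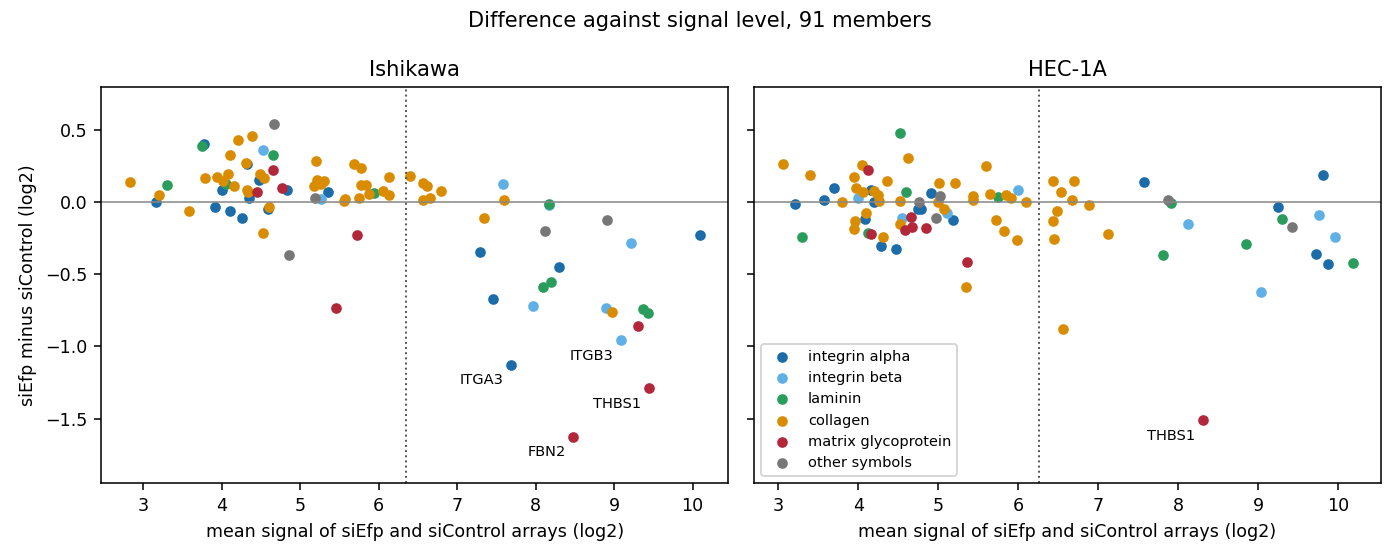
Difference siEfp minus siControl (y axis, log2) of the 91 members against the mean signal of the line's siEfp and siControl arrays (x axis, log2), coloured by family; the dotted line is the median of that mean over all genes. To the right of it 22 of 30 members in Ishikawa cells and 20 of 27 in HEC-1A cells lie below 0.

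Some members also differed between the lines under either siRNA, in shares near those of all genes. At least 2-fold higher in Ishikawa than in HEC-1A cells on both pairs of arrays were TNC, FBN2, ITGB6, ITGB4, COL12A1 and THBS1, 6 of 91 beside 5.59% of all genes. At least 2-fold lower in Ishikawa cells were ITGA3, ITGA5, ITGA6 and ITGB8, 4 of 91 beside 3.94%. The largest gaps were those of ITGB6, which under siControl had 9.26 in Ishikawa cells and 3.98 in HEC-1A cells, TNC, with 9.74 in Ishikawa cells and 4.68 in HEC-1A cells, and FBN2, with 9.29 in Ishikawa cells and 4.26 in HEC-1A cells. All 6 genes higher in Ishikawa cells were also lower there with siEfp, beside 47.6% of all genes. Of the 4 genes lower in Ishikawa than in HEC-1A cells, ITGA3, ITGA5 and ITGA6 were lower with siEfp too. Their differences in Ishikawa cells were -1.13, -0.34 and -0.45, and that of ITGB8 was 0.13. The share lower with siEfp among all genes higher in Ishikawa than in HEC-1A cells was not counted. The Ishikawa siControl signal enters both comparisons, so no link between them is drawn. Within the members the correlation of signals was 0.988 between the siEfp and siControl arrays of Ishikawa cells and 0.992 between those of HEC-1A cells, but 0.846 between the lines with siEfp and 0.834 with siControl, over 91 genes that are not independent and were normalized together.

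**Figure D4:**
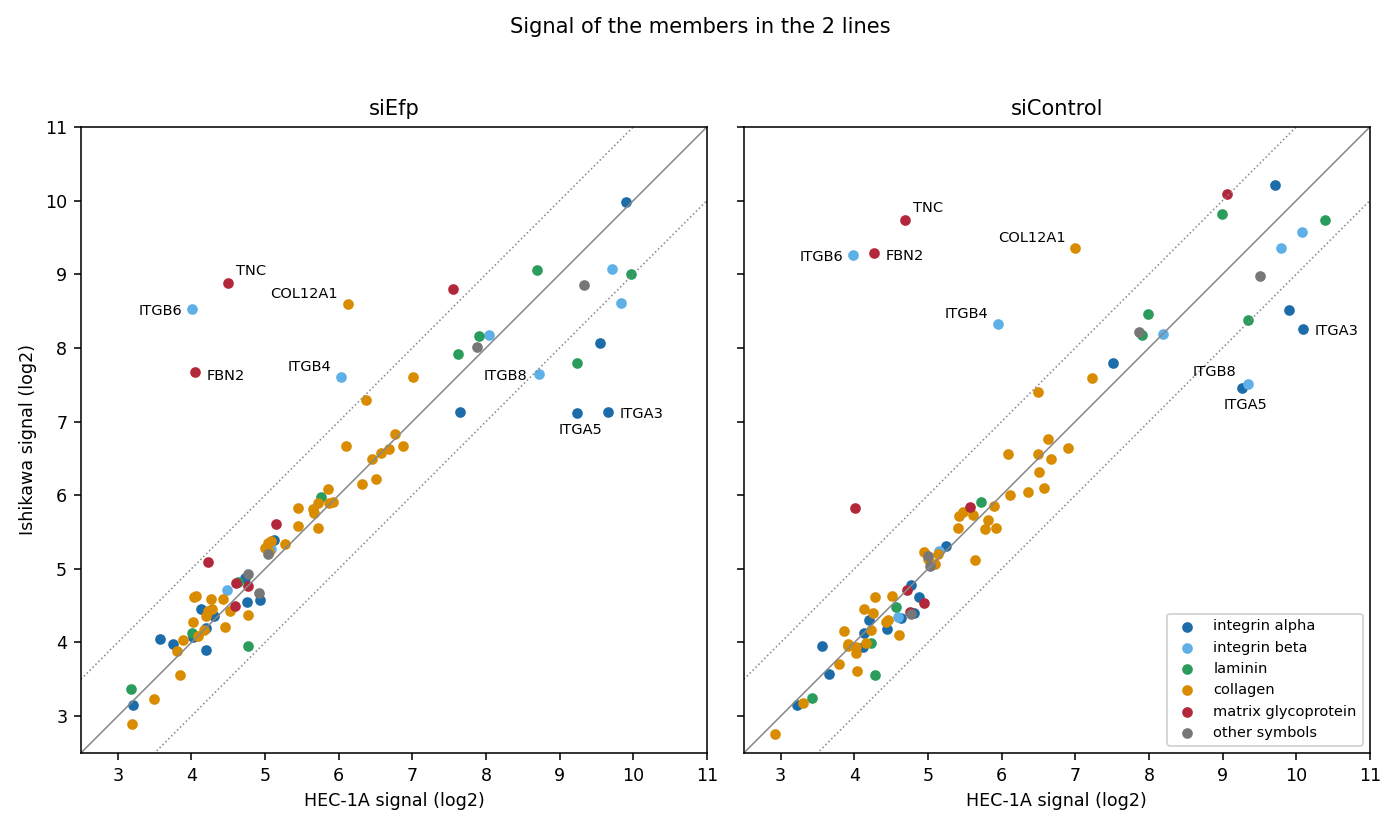
Signal of the 91 members in Ishikawa cells (y axis, log2) against HEC-1A cells (x axis, log2) with siEfp and with siControl, 1 array each, coloured by family. The solid line marks equal signals and the dotted lines a 2-fold difference; TNC, ITGB6, FBN2, COL12A1, ITGB4 and THBS1 lie above the band and ITGA3, ITGA5, ITGA6 and ITGB8 below it in both panels.

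The cytoplasmic partners of integrins mostly differed little. Of 23 measured genes of the integrin adhesome 1 was at least 1.5-fold lower in Ishikawa cells, beside 3.72% of all genes. It was TNS3, a tensin that binds β tails, at 6.83 with siEfp and 7.66 with siControl, and its difference in HEC-1A cells was -0.49. VCL, vinculin, differed by -0.51 in Ishikawa cells and by -0.08 in HEC-1A cells, and the talin gene TLN1 by 0.13 and 0.19. FERMT1, a kindlin, was the 1 adhesome gene at least 1.5-fold lower in HEC-1A cells, beside 2.04% of all genes. It had a dim 3.86 under siEfp and 4.77 under siControl. The list had medians of -0.01 and -0.05.

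Genes that modify or cross-link collagen had medians of -0.03 and -0.01 over 25 measured genes. In both lines 1 of them was lower beyond 1.5-fold, beside 0.961% of all genes. This was P3H2, a prolyl 3-hydroxylase of collagen, with 6.57 under siEfp and 8.10 under siControl in Ishikawa cells, 2.88-fold lower, and 5.92 under siEfp and 6.54 under siControl in HEC-1A cells, 1.53-fold lower. Of 8 partners of the basement membrane NID2, nidogen 2, and PXDN, peroxidasin, which cross-links type IV collagen, had differences of -0.69 and -0.61 in Ishikawa cells. In HEC-1A cells they differed by -0.10 and -0.20. NID1, nidogen 1, was higher by 0.45 in Ishikawa and 0.32 in HEC-1A cells. NID2 and PXDN were dim in both lines and NID1 in Ishikawa cells, by the mean signal of the line's arrays.

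Among 18 matrix proteases and inhibitors TIMP2, an inhibitor of metalloproteinases, was the 1 gene at least 1.5-fold higher in Ishikawa cells, beside 1.49% of all genes. It had 9.81 under siEfp and 9.17 under siControl there, and in HEC-1A cells 10.34 under siEfp and 9.87 under siControl. RECK, a membrane-anchored inhibitor, was the 1 in HEC-1A cells, beside 1.34% of all genes, with 7.11 under siEfp and 6.51 under siControl. Of 9 other matrix receptors CD44, the hyaluronan receptor, had 10.41 with siEfp and 11.01 with siControl in Ishikawa cells, 1.52-fold lower, and a difference of -0.10 in HEC-1A cells. CD47, the receptor of THBS1, differed by -0.17 and 0.02.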

How the data were processed

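The authors deposited log2 values for 33297 probe sets on 4 arrays, for which the submitters' processing notes name Affymetrix Expression Console and RMA. RMA corrects background, gives all arrays 1 distribution and summarizes each probe set, so a shift shared by all genes is removed and differences of dim probe sets are compressed. The sources used here give neither versions nor the genome build. The platform annotation is that of the Human Gene 1.0 ST array, while the study's methods name an exon array. The labels give 150 ng of RNA per array.

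Probe sets with exactly 1 gene symbol (19460, of which 19429 had a gene ID in RefSeq GRCh38.p14; 0 symbols changed) were averaged per gene, giving 18417 genes. Another 1754 probe sets had several symbols and 12083 none. Of the 91 genes only COL11A2 had more than 1 probe set. Any symbol beginning ITGA or ITGB was taken. Probe signals do not allow levels of different genes to be compared, so signals were set only against the median of all genes. Each difference was siControl subtracted from siEfp in the same line, and the lines were not treated as replicates. A change under an alternative of over 0.1 (log2) was taken as a shift of a value. The genes, the lists and the alternatives were chosen with earlier results of these data known. Named are genes at least 2-fold different, the 5 lowest and highest in each line with a median signal on 1 array, the 3 of highest mean signal per family, the main epithelial laminin and integrin chains, the type IV collagens, the glycoproteins and the ends of the other lists. COL7A1, COL8A1, COL13A1, COL15A1, COL25A1, COL28A1, LAMA1, LAMA2, LAMA4, LAMB2, LAMB4, LAMC3, ITGA7, ITGA10, ITGA11, ITGB2, ITGB7, ITGBL1, TLN1 and CD47 fall outside this rule and were named after their values had been seen. Counting was tested on simulated data. Python 3.11.15, numpy 2.4.6, pandas 2.3.3 and matplotlib 3.10.9 were used.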

Additional observations from a re-analysis of the deposited data

How the results depend on the processing

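With 1 array per group no replicate can be left out, and no paired analysis was possible because the labels carry no replicate numbers and each group has 1 array. At a 1.5-fold in place of a 2-fold threshold the members lower numbered 13 in Ishikawa cells, 3 in HEC-1A cells and 2 in both lines. Leaving out genes below the median signal moved the median difference of the members to -0.31 in Ishikawa cells, against 0.07 over all 91, and to -0.13 in HEC-1A cells, against -0.02, and left 20 members lower in HEC-1A cells, since fewer genes were counted. The other counts and medians kept within 1.5 times or 0.1 on the log2 scale of the reported ones under centring, a second quantile normalization, use of a gene's brightest probe set on average, a digit required after ITGA and ITGB, and chains only. The difference of each of the 40 named members in each line moved by at most 0.08 under the first 3 of these. Dim signals limit what can be said of most collagens.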
